A study of Mus musculus with 45 samples.

Results

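Marker genes of the tissue around the nucleus accumbens (NAC), part of the ventral striatum, were followed in NAC samples taken after chronic intermittent ethanol (CIE). The 41 genes mark neocortex (13), choroid plexus (10), ependyma (2), septum (3), hypothalamus (7) and thalamus (6), out of 18193 genes on the array. A gene was included where a probeset, a set of short probes read as 1 value, carried its symbol alone, and the probeset with the highest mean stood for the gene. By this rule 39 of the 41 were measured, from 74 probesets. Prlr, the prolactin receptor, and Agrp, a hypothalamic feeding peptide, had no such probeset. Adult male C57BL/6J mice were exposed over 4 cycles of 4 days, 16 h per day, to ethanol vapor at 10 to 13 mg/l of air, with 7 days of abstinence between cycles. Before each cycle CIE mice were injected with ethanol (1.6 g/kg) and pyrazole (1 mmol/kg), which inhibits alcohol dehydrogenase. Ctrl mice were kept in air and were given saline with pyrazole, so that pyrazole was common to all groups. Tissue of 1 mouse per array was collected once the last session had ended, at 0 h (6 Ctrl, 6 CIE), 8 h (5 Ctrl, 5 CIE), 72 h (6 Ctrl, 5 CIE) or 7 d (6 Ctrl, 6 CIE). The values are log2 expression levels, and the median of an array lay between 6.94 and 6.96. Precision is limited by the number of arrays. Genes of the medium spiny neurons of the NAC were detected at high signal, with Drd1 at a mean of 12.55, Ppp1r1b at 12.13, Penk at 13.70 and Drd2 at 10.13.

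The NAC borders cortical, septal and ventricular tissue, and a hand dissection can take in varying amounts of each. Projection neurons of the neocortex use glutamate and switch on transcription factors such as Tbr1 and Neurod6, while the principal neurons of the NAC are GABAergic medium spiny neurons. Choroid plexus, which makes cerebrospinal fluid, is known for very high levels of transthyretin. In bulk tissue of this kind, fewer cells of a type and less RNA per cell cannot be told apart.

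Promoters are shown for cortical markers that moved together across arrays, as the values further on describe. The RefSeq promoter table (GRCm38.p6) matched 32 of the 41 genes by symbol, and of the 5 most tightly linked cortical genes it held these 4. Each line gives the 250 bases before the transcription start, 5′ to 3′ on the gene's strand. Capitals mark CAGATG or CATATG, E-boxes of the type bound by NEUROD factors, TAATCC, the core recognised by OTX factors, and GTTGCC, part of the site of RFX factors, each on either strand.
Slc17a7 (chr7:45163671-45163920, plus strand): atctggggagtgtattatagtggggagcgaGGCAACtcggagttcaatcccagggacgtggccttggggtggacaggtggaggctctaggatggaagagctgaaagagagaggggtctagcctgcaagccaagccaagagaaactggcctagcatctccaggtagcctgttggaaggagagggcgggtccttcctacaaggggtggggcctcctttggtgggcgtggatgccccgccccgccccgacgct
Neurod6 (chr6:55681264-55681513, minus strand): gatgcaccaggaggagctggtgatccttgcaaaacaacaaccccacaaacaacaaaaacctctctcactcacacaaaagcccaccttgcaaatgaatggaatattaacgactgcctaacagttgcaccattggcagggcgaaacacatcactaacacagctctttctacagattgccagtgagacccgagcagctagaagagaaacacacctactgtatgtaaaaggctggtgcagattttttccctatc
Neurod2 (chr11:98329646-98329895, minus strand): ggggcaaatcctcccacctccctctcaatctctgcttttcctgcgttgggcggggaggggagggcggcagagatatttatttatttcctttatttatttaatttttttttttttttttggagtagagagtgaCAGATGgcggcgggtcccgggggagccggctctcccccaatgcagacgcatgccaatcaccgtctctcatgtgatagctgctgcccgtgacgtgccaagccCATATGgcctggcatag
Tbr1 (chr2:61804203-61804452, plus strand): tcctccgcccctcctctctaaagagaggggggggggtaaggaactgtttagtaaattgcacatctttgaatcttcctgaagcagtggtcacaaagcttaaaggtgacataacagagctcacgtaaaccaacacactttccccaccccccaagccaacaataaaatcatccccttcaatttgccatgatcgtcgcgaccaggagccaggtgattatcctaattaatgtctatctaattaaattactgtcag
CAGATG was present in 14.4% of all 32851 promoters, CATATG in 3.46%, TAATCC in 6.25% and GTTGCC in 10.4%. Among the 16 promoters of 12 cortical markers, 2 held CAGATG, 1 held CATATG, 1 held TAATCC and 3 held GTTGCC. Neurod2 held both E-boxes and Slc17a7 held GTTGCC, while Neurod6 and Tbr1 had no match in these windows. A match is a description of the letters and not of binding.

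The markers varied far more between single arrays than most probesets did. Their SD within groups had a median of 0.276 log2 units, against 0.135 for all probesets. The SD of 24 of the 39 lay in the top 10% of all probesets, and that of 35 lay above the median. From the lowest to the highest array the markers spanned a median of 1.28 log2 units, against 0.609 for all probesets. The reference was not matched for level, and the genes were chosen with earlier results of these data known, so this is a description. The widest markers were Ttr (SD 1.68), which encodes transthyretin, a carrier of thyroid hormone, and Neurod6 (SD 1.56). Tbr1 (SD 1.34), a transcription factor of deep-layer projection neurons, and Slc17a7 (SD 1.05), the vesicular glutamate transporter of cortical neurons, followed. Slc17a6 (SD 0.72), the vesicular glutamate transporter of thalamic neurons, was the widest of the thalamic genes. At the other end were Slc4a5 (SD 0.11), a bicarbonate cotransporter of choroid plexus, and Hcrt (SD 0.12), the orexin precursor of the lateral hypothalamus. The mean level of 16 markers lay below the median of all probesets. All 13 cortical genes lay above it, but this held for only 2 of the 9 measured choroid plexus genes (Ttr and Clic6) and 1 of the 6 measured hypothalamic genes (Oxt).

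**Figure D1:**
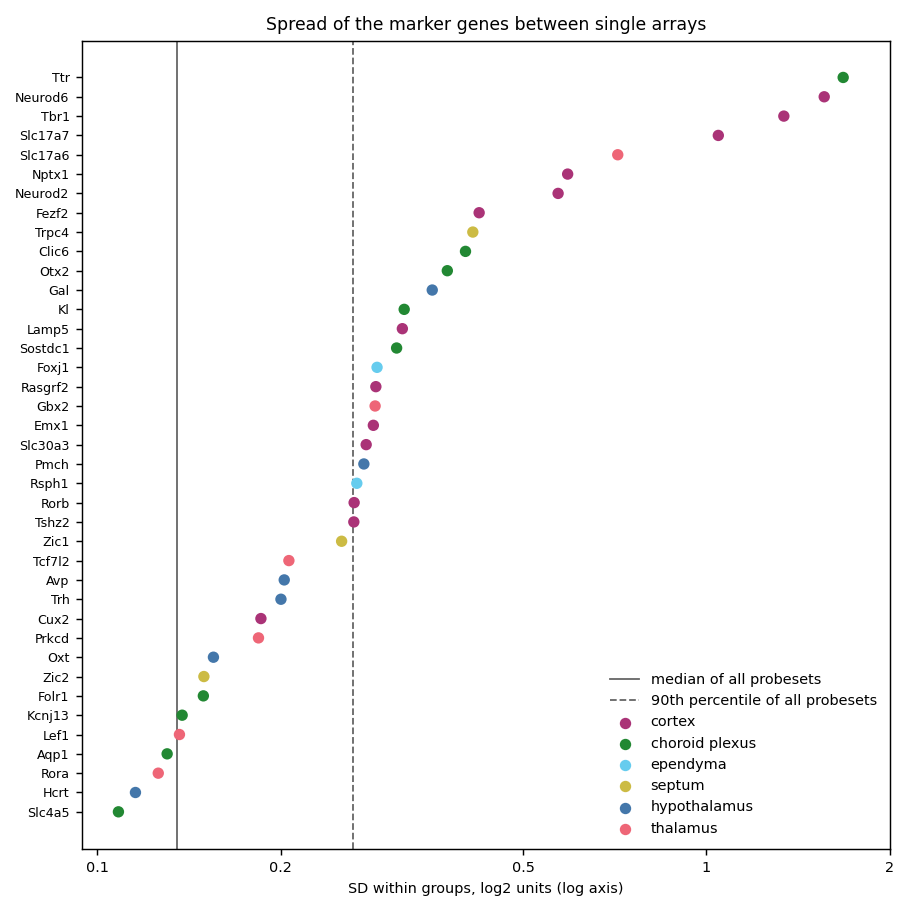
SD within groups of each of the 39 measured marker genes (log2 units, log axis, pooled over the 8 groups), coloured by the region marked. The lines give the median (0.135) and the 90th percentile (0.263) of all probesets, and Ttr, Neurod6, Tbr1 and Slc17a7 lie above 1.

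Cortical markers formed the clearest group. After the group means were subtracted, the correlation of a gene with the mean of the other 12 cortical genes over the 45 arrays was 0.97 for Nptx1, a synaptic pentraxin, 0.97 for Tbr1, 0.966 for Slc17a7, 0.94 for Neurod6 and 0.938 for Neurod2. With the 2 arrays farthest from the median of that mean left out, these values lay between 0.918 and 0.966, and with the means of 6 hybridization sets, inferred from values shared exactly between arrays, removed as well, between 0.939 and 0.977. Rorb, a nuclear receptor of layer 4 (r = 0.852), Slc30a3, the vesicular zinc transporter (0.811), Fezf2, a factor of subcerebral projection neurons (0.801), Emx1, a homeobox factor of the dorsal telencephalon (0.633), and Rasgrf2, an exchange factor for Ras (0.432), ran the same way. These values are descriptions, since the arrays share their hybridization sets and normalization.

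The other 3 of the 13 genes did not follow these cortical genes, so their label was not borne out in these samples. Lamp5, a lysosome-associated membrane protein, correlated with the other cortical genes at -0.821 and with the mean of 21 medium spiny neuron genes at 0.905. Tshz2, a teashirt zinc finger protein, stood at -0.64 with the other cortical genes, and Cux2, a homeobox factor of upper layers, at -0.142. Lamp5 had a mean of 11.53 and a range of 1.19 log2 units. The other probesets of Neurod2 correlated with the brightest between 0.0756 and 0.977, and that of Emx1 at 0.139. The range was 0.289 to 0.425 for Rorb, 0.393 to 0.4 for Rasgrf2 and 0.301 to 0.679 for Cux2. Agreement was closer for Tshz2 (0.634 to 0.863) and Nptx1 (0.953). The values of Emx1, Rorb, Rasgrf2 and Cux2 thus depend on the probeset used.

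Neurod6 shows how far single samples lay apart. In Ctrl at 0 h the lowest, median and highest arrays were at 5.05, 8.09 and 9.39, and in CIE at 0 h at 5.34, 8.75 and 10.10. At 8 h the 5 Ctrl arrays were at 5.04, 8.79, 7.18, 7.74 and 9.10 and the 5 CIE arrays at 7.12, 9.13, 8.12, 9.29 and 6.27. Each group thus held both low and high arrays at 8 h, and the groups overlapped. At 72 h Ctrl had 5.00, 6.97 and 7.81 as lowest, median and highest, and the CIE arrays were at 8.63, 8.39, 8.62, 8.85 and 5.90. At 7 d Ctrl ran from 5.28 through a median of 8.31 to 9.42, and CIE from 4.12 through 9.09 to 9.68. At 72 h 4 of 5 CIE arrays lay above all 6 Ctrl arrays, while replicate 63 lay below the Ctrl median. That difference of 1.44 ± 0.906 (SE) was the largest positive change among all 45037 probesets at 72 h and did not pass (adjusted p = 0.748, limma with Benjamini-Hochberg adjustment).

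Tbr1 followed the same arrays. It averaged 7.60 ± 1.21 (SD, n = 6) in Ctrl and 8.35 ± 1.81 (n = 6) in CIE at 0 h. At 8 h it averaged 7.52 ± 1.43 (n = 5) and 7.72 ± 1.12 (n = 5), and at 72 h 6.65 ± 0.861 (n = 6) and 8.00 ± 0.871 (n = 5). At 7 d the means were 7.93 ± 1.30 (n = 6) and 8.02 ± 1.69 (n = 6). The SD within a group exceeded the difference between CIE and Ctrl at 0 h, 8 h and 7 d. At 72 h the difference of 1.35 ± 0.778 (SE) was larger than either SD and did not pass (adjusted p = 0.722).

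**Figure D2:**
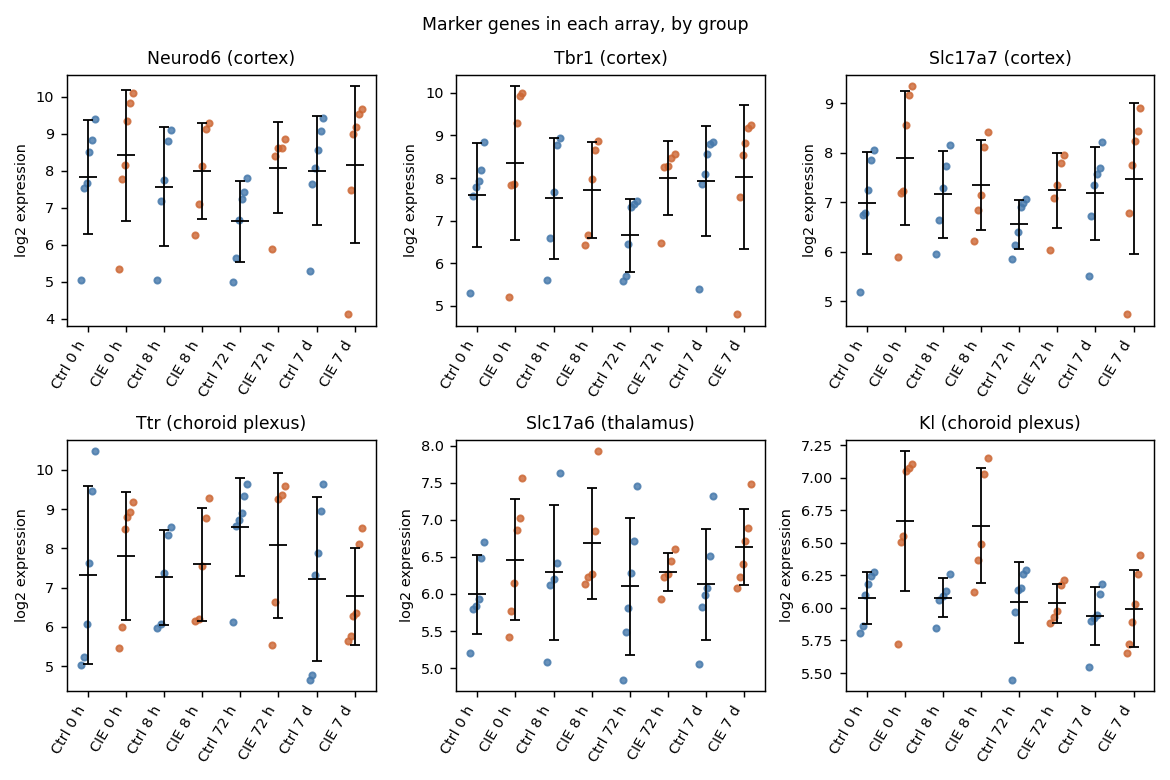
Log2 expression of 6 marker genes in each array (points, blue for Ctrl and orange for CIE), with the mean and SD of each group in black. Neurod6 spans 4.12 to 10.10 and Ttr 4.66 to 10.47, with low and high arrays in both CIE and Ctrl, and Kl is above all Ctrl arrays in 5 of 6 CIE arrays at 0 h.

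Choroid plexus markers did not move together. The median correlation over the 36 pairs of the 9 measured genes was 0.0154, against 0.48 over the 78 cortical pairs, and 1 pair exceeded 0.5. Ttr correlated with the mean of the other 8 genes at 0.0875 (rho = 0.0839), although its other 3 probesets correlated with the main probeset at 0.968 to 0.994. Clic6, an intracellular chloride channel protein, followed the medium spiny neuron genes (r = 0.897) and ran against the cortical genes (-0.813). Folr1, the folate receptor alpha (mean 5.40), Kcnj13, a potassium channel (5.73), Aqp1, a water channel (4.79), and Slc4a5 (4.13) were dim and spanned 0.521 to 0.615 log2 units. Sostdc1, a secreted antagonist of BMP signalling, was closest to Gal (0.662), and Otx2, a homeobox factor, to Zic1 (0.702). The genes are therefore described singly, and their mean stands only for the list.

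In Ttr the lowest, median and highest arrays were 5.02, 6.86 and 10.47 in Ctrl at 0 h and 5.46, 8.64 and 9.17 in CIE. At 8 h the Ctrl arrays were at 8.54, 6.08, 7.37, 5.98 and 8.33 and the CIE arrays at 6.21, 8.76, 9.29, 6.16 and 7.54. At 72 h Ctrl ran from 6.13 through 8.81 to 9.64, and the CIE arrays were at 5.55, 9.36, 9.58, 6.63 and 9.24. Arrays near 5 to 6 and arrays above 8.5 thus stood side by side within groups. At 7 d Ctrl ran from 4.66 through 7.61 to 9.64 and CIE from 5.64 through 6.32 to 8.52. The change was 0.49 ± 0.928 at 0 h, 0.33 ± 1.02 at 8 h, -0.47 ± 0.973 for 72 h and -0.43 ± 0.928 at 7 d (log2, SE), none of which passed. Clic6 averaged 9.29 ± 0.308 (SD) in Ctrl and 9.28 ± 0.608 in CIE at 0 h, 9.41 ± 0.317 and 9.54 ± 0.454 at 8 h, 9.22 ± 0.321 and 9.26 ± 0.057 at 72 h, and 9.28 ± 0.496 and 9.01 ± 0.369 at 7 d.

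Kl, the Klotho protein, a co-receptor for a fibroblast growth factor, came closest to the threshold, and its values are shown after they were seen. At 0 h the Ctrl arrays lay between 5.81 and 6.27 with a median of 6.14, and the CIE arrays between 5.73 and 7.10 with a median of 6.80. At 8 h Ctrl had 6.13, 6.09, 6.26, 6.06 and 5.85, and CIE had 6.49, 7.03, 6.37, 6.12 and 7.15. At 0 h 5 of 6 CIE arrays lay above all Ctrl arrays, and CIE replicate 72 lay below them. The change was 0.59 ± 0.178 at 0 h (adjusted p = 0.0494) and 0.55 ± 0.195 at 8 h (adjusted p = 0.343), and -0.01 ± 0.186 at 72 h and 0.06 ± 0.178 at 7 d. The difference between times did not pass (adjusted p = 0.647). Without CIE 0 h replicate 72, which is also the array with the highest cortical mean, Kl passed at 0 h (adjusted p = 0.0027). That array had the lowest Kl of the CIE arrays at 0 h, so leaving it out was bound to enlarge the difference. The result is therefore no separate support. The second Kl probeset, at a mean of 4.60, correlated with the first at 0.183 and gave -0.19 ± 0.0689 at 0 h (adjusted p = 0.131), so that the 2 probesets gave changes of opposite sign. With the sets as a block the change was 0.64 ± 0.2 (adjusted p = 0.0894).

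The ependymal genes Foxj1, the master factor of motile cilia, and Rsph1, a radial spoke protein of cilia, correlated at 0.433 (rho = 0.228). Ctrl 0 h replicate 20 stood at 7.04 in Foxj1 and 8.16 in Rsph1 against group medians of 6.06 and 7.07. Without the 2 arrays farthest from the median of the other gene, r was 0.0869 to 0.182. With the set means also removed, where that array is a set of its own, r was 0.116. Group means of Foxj1 lay between 6.00 and 6.36, and those of Rsph1 between 7.00 and 7.26.

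Of the septal genes, Trpc4, a cation channel, followed the cortical genes (r = 0.803) more than the other 2 septal genes (0.422). Trpc4 averaged 7.48 ± 0.191 (SD) in Ctrl and 7.87 ± 0.757 in CIE at 0 h, 7.50 ± 0.29 and 7.63 ± 0.528 at 8 h, 7.17 ± 0.175 and 7.54 ± 0.334 at 72 h, and 7.53 ± 0.315 and 7.79 ± 0.383 at 7 d. Zic1, a zinc finger factor of the medial septum, had group means between 10.17 and 10.29, and reached 11.06 in CIE 8 h replicate 15. Zic2, a relative of Zic1, was dim (mean 5.00) and correlated with the other 2 at 0.132.

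Of the 6 measured hypothalamic genes, 5 spanned more than the median range of all probesets (0.609), and Hcrt (0.45) spanned less. Gal, the precursor of galanin, had group means between 5.92 and 6.16, and CIE 7 d replicate 13 reached 7.33 against a group median of 5.80. The same array was the highest of all 45 in Avp (6.10), the vasopressin precursor, and Oxt (8.97), the oxytocin precursor. Pmch, the precursor of melanin-concentrating hormone, had group means between 5.96 and 6.22, with its highest array at 7.06 in Ctrl 72 h replicate 6 and the next at 6.93 in CIE 8 h replicate 15. Trh, the precursor of thyrotropin-releasing hormone, spanned 0.746 log2 units. The correlation of a gene with the mean of the others was 0.56 for Gal, 0.556 for Avp and 0.458 for Oxt. Without the 2 farthest arrays it was 0.407, 0.409 and 0.215. Over all arrays it was 0.345 for Trh, 0.314 for Pmch and -0.0899 for Hcrt. The marker closest to Trh was Lamp5 (0.632).

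Thalamic genes correlated with a median of 0.422 over 15 pairs. Slc17a6 ran with the cortical genes (r = 0.607) more than with the other 5 thalamic genes (0.204). It averaged 6.00 ± 0.532 (SD) in Ctrl and 6.46 ± 0.817 in CIE at 0 h, 6.29 ± 0.907 and 6.68 ± 0.748 at 8 h, 6.10 ± 0.923 and 6.30 ± 0.252 at 72 h, and 6.13 ± 0.752 and 6.63 ± 0.512 at 7 d. Gbx2, a homeobox factor of the developing thalamus, averaged 4.92 ± 0.272 and 4.55 ± 0.241 at 0 h, 4.78 ± 0.221 and 4.91 ± 0.402 at 8 h, 4.81 ± 0.254 and 4.92 ± 0.141 at 72 h, and 4.79 ± 0.286 and 4.59 ± 0.377 at 7 d. The Wnt pathway factors Tcf7l2 and Lef1 correlated with the other thalamic genes at 0.663 and 0.643, Prkcd, a protein kinase C, at 0.406, and Rora, a nuclear receptor, at 0.315. Gbx2 had the lowest value, at 0.175 (0.017 without the 2 farthest arrays). It was closest to Tshz2 (0.794) and ran against the cortical mean (-0.559). The probesets of Tcf7l2 (r of the others with the brightest -0.234 to -0.065) and Rora (-0.4 to 0.366) disagreed, as did those of Lef1 (-0.011), so the values of these genes depend on the probeset used.

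**Figure D3:**
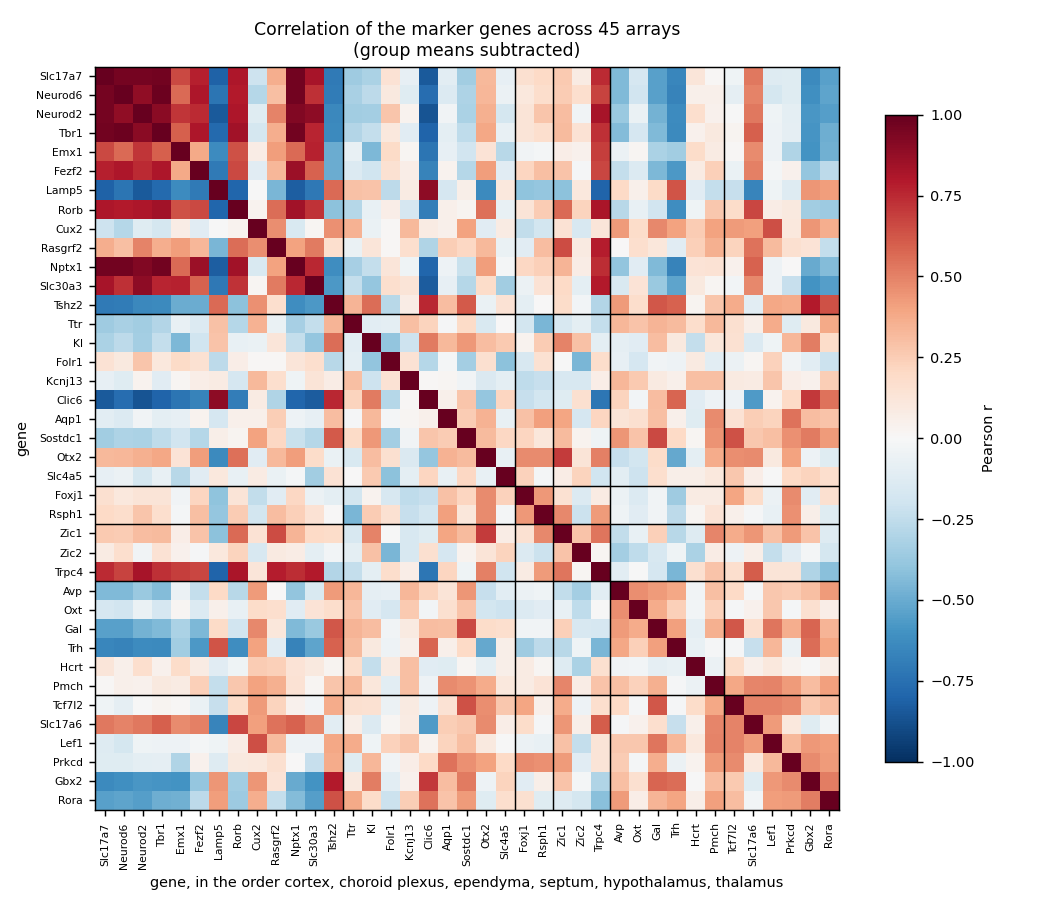
Pearson correlation of each pair of the 39 marker genes over 45 arrays after subtraction of the group means, with lines between the regional lists. The cortical block holds a median r of 0.48 with Lamp5 and Tshz2 running against it, and the choroid plexus block has a median of 0.0154.

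A list mean was taken as the mean over the genes of a list of the log2 value minus that gene's own mean. The cortical mean ran from -0.86 in CIE 7 d replicate 13 to 0.92 in CIE 0 h replicate 72, a 3.42-fold range, with an SD within groups of 0.436. The SD was 0.222 for choroid plexus, 0.235 for ependyma, 0.209 for septum, 0.135 for hypothalamus and 0.182 for thalamus. The cortical mean ran against the mean of the medium spiny neuron genes (r = -0.772, rho = -0.82, and -0.779 without the 2 farthest arrays). This held in CIE arrays (-0.812, n = 22), in Ctrl arrays (-0.696, n = 23) and with the set means removed (-0.776). CIE 0 h replicate 72, the highest array in the cortical mean, was the lowest in the medium spiny neuron mean (-0.55). Among the other lists of neurons and glia, the cortical mean was also compared with 7 pan-neuronal genes (r = 0.831, rho = 0.81, 0.782 without the 2 farthest arrays), at 0.919 in CIE and 0.698 in Ctrl arrays. The mean of 9 myelin genes, with an SD of 0.353, was at -0.139 with the cortical mean. The cortical mean also ran with the septal mean (0.696), in which Trpc4 stood at 0.803, Zic1 at 0.345 and Zic2 at 0.112. It ran against the choroid plexus mean (-0.426), in which Clic6 stood at -0.813 and Ttr at -0.294, and the hypothalamic mean (-0.42), in which Trh stood at -0.633 and Gal at -0.463. The hypothalamic mean ran with those of choroid plexus (0.636) and thalamus (0.572). Over 11171 single genes outside the markers the median r with the hypothalamic mean was 0.216. This is not a like measure, since a list mean averages several genes. With the pan-neuronal mean, r was -0.481 for hypothalamus, -0.555 for choroid plexus and -0.13 for thalamus. CIE 8 h replicate 15 was the highest array in the choroid plexus (0.40), septal (0.63) and thalamic (0.52) means.

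Further genes of each region were compared with the marker means. The mean of 11 other cortical genes correlated with the cortical mean at 0.987, and 9 of the 11 exceeded 0.5 singly. Of 5 other ependymal genes, 4 exceeded 0.5 with the ependymal mean. The same was true of 1 of 11 other choroid plexus genes, 1 of 3 septal genes, 1 of 9 hypothalamic genes and 0 of 7 thalamic genes. Ctrl 0 h replicate 20 was the highest array in the ependymal mean and in Ccdc153, Tmem212 and Dynlrb2 of the other ependymal genes. The mean of these 5 correlated with the ependymal mean at 0.798, and at 0.601 without the 2 farthest arrays. None of the other genes of any region passed between CIE and Ctrl at any time or over the 4 times (limma, adjusted p of 0.01). Of all probesets 1.59%, 0.0622%, 0% and 0% passed in order of time, and 0.542% over the 4 times. The 11 other cortical genes had median changes of 0.31, 0.08, 0.27 and 0.11 in order of time. Of them 3, 0, 3 and 0 had an unadjusted p under 0.05, against 16.5%, 7.42%, 7.2% and 2.34% of all probesets. The 5 other ependymal genes had a median change of -0.51 at 8 h, with 4 negative and 0 at an unadjusted p under 0.05 (7.42% of all probesets). Their mean at 8 h differed by -0.32 ± 0.299 (SE) and was higher in CIE in 0 of 5 sets, while the mean of Foxj1 and Rsph1 differed by 0.07 ± 0.149. At the remaining times their median change lay between -0.02 and 0.18. The median change at a time lay between -0.05 and 0.01 for the other choroid plexus genes, -0.07 and 0.11 for the septal, -0.00 and 0.04 for the hypothalamic and -0.06 and 0.06 for the thalamic genes. Among 11171 other genes brighter than the median probeset, those most like the cortical mean were Ccn3 (r = 0.981), Etl4 (0.98), Vxn (0.98), Prss12 (0.972) and Cck (0.968). For the septal mean they were A930009L07Rik (0.89), Zfp423 (0.889), Tspan33 (0.882), Slc38a1 (0.86) and Aifm3 (0.85), and for the thalamic mean Gm26782 (0.838), Ptpn21 (0.837), Ndc1 (0.821), Klhdc8a (0.814) and Prim2 (0.808). For the choroid plexus mean they were Rragc (0.793), Galc (0.732), 1600020E01Rik (0.72), Csmd3 (0.71) and Tprgl (0.704), and for the hypothalamic mean Pde4d (0.787), Gabrg1 (0.782), Klhl32 (0.762), Vat1 (0.757) and Cd83 (0.756). Each is a correlation over the same 45 arrays with group means subtracted. The median over all 11171 genes was -0.04 for the cortical mean, 0.06 for the septal and 0.22 for the thalamic. It was 0.13 for the choroid plexus mean and 0.22 for the hypothalamic. The 5 genes named for choroid plexus spanned 0.215 to 0.623 log2 units.

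**Figure D4:**
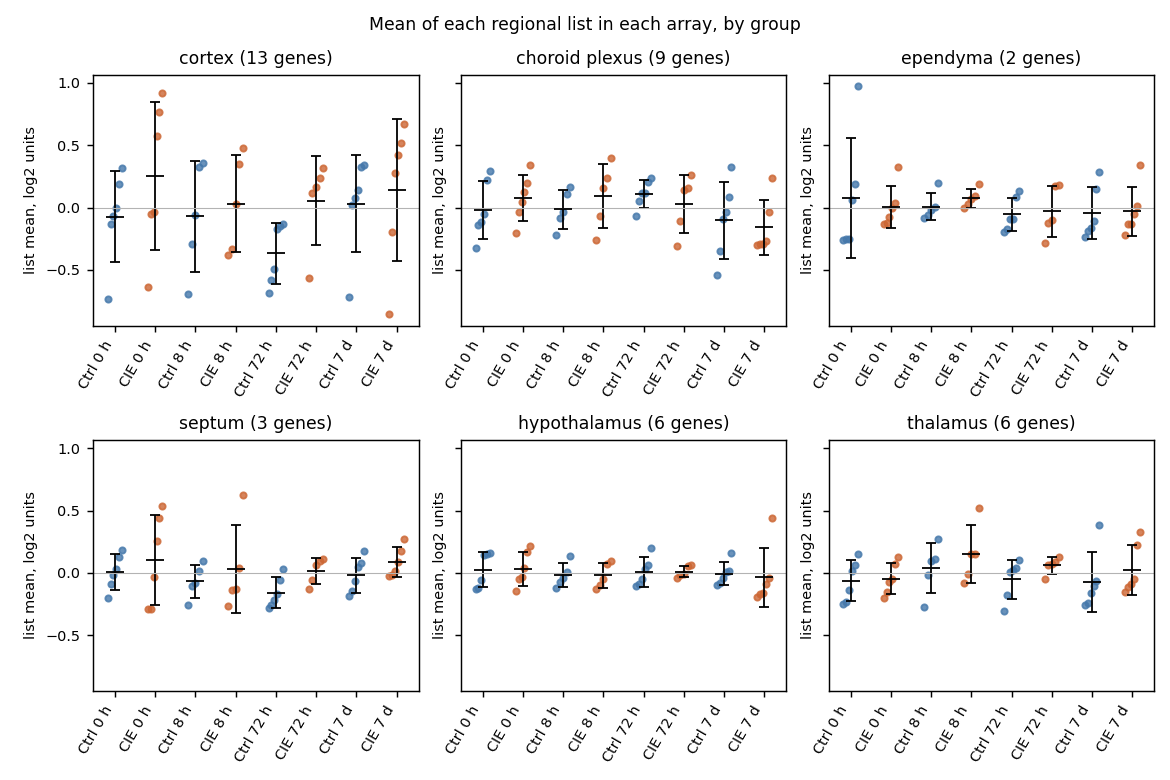
Mean of each regional list in each array (points, log2 units relative to the mean of all arrays, blue for Ctrl and orange for CIE), with group means and SD in black. The cortical mean has the widest spread (SD 0.436), and CIE and Ctrl overlap at each time in all 6 lists.

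The balance of the markers between CIE and Ctrl was compared at each time, as a gauge of whether neighbouring tissue was sampled alike. No marker passed the adjusted p of 0.01 at any time. At 0 h 0 of 39 passed, while 1.59% of all probesets did, and at an unadjusted p under 0.05 there were 5 of 39, against 16.5% of all probesets. The 5 were Slc30a3 (0.47 ± 0.154 SE), Emx1 (0.38 ± 0.158), Kl (0.59 ± 0.178), Hcrt (0.17 ± 0.067) and Gbx2 (-0.37 ± 0.159). At 8 h 0 of 39 passed (0.0622% of all probesets) and 1, Kl, had an unadjusted p under 0.05 (7.42%). At 72 h (0% passed, 7.2% unadjusted) and at 7 d (0% and 2.34%) 0 of 39 met either threshold, and the smallest adjusted p values were 0.691 for Tcf7l2 and 1.00. Over the mean of the 4 times 0 of 39 passed (0.542%) and 5 had an unadjusted p under 0.05 (16%), namely Neurod2, Nptx1, Slc30a3, Trpc4 and Kl, all higher in CIE. For a difference between times 0 of 39 passed (0.124%) and 1, Kl, had an unadjusted p under 0.05 (7.36%). In 0 of 39 markers did the CIE and Ctrl arrays lie fully apart at any time, while the share of all probesets for which this was so was 1.35% (0 h), 1.93% (8 h), 0.915% (72 h) and 0.151% (7 d).

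Changes of the cortical genes were more often positive than negative at each time, and none passed. Their median change was 0.38 at 0 h (9 of 13 positive), 0.14 at 8 h (10 of 13), 0.26 at 72 h (12 of 13) and 0.09 at 7 d (10 of 13), while the median over all probesets lay between -0.00 and 0.02. As the genes share arrays, these counts are not independent. Lamp5, Cux2 and Tshz2 were the 3 negative genes at 7 d and over the 4 times. Without these 3, left out after their values were seen, 9 of 10 were positive at 0 h and 8 h and 10 of 10 at 72 h and 7 d, and the cortical mean differed by 0.45, 0.13, 0.55 and 0.17 in order of time and by 0.33 over the 4 times. These are given with no test. CIE minus Ctrl in the cortical mean was 0.33 ± 0.252 (SE) at 0 h, 0.10 ± 0.276 at 8 h, 0.42 ± 0.264 for 72 h, 0.11 ± 0.252 at 7 d and 0.24 ± 0.13 over the 4 times. Compared within hybridization sets, CIE was higher in 2 of 5 sets at 0 h (-0.51 to 1.50), 4 of 5 at 8 h, 5 of 5 at 72 h (0.02 to 0.80) and 4 of 6 at 7 d (-1.20 to 0.99). The mean of the medium spiny neuron genes differed by -0.24 ± 0.11 at 0 h, -0.08 ± 0.12 at 8 h, 0.04 ± 0.115 for 72 h and -0.13 ± 0.11 at 7 d. Of these 21 genes 19, 14, 3 and 20 had a negative change in order of time, and none passed. In limma 10, 1, 0 and 2 of them had an unadjusted p under 0.05, against 16.5%, 7.42%, 7.2% and 2.34% of all probesets. These genes share arrays too. Within sets the sign of their mean varied, with CIE higher in 3 of 5 sets at 0 h (-0.56 to 0.16), 2 of 5 at 8 h, 2 of 5 at 72 h and 2 of 6 at 7 d. Over the 4 times the differences were 0.02 ± 0.0663 for choroid plexus, 0.01 ± 0.0703 for ependyma, 0.12 ± 0.0625 for septum, -0.01 ± 0.0405 for hypothalamus and 0.08 ± 0.0544 for thalamus. The spread between arrays was larger in CIE than in Ctrl for 27 of the 39 genes and 12 of the 13 cortical genes, with a median ratio of SDs of 1.13. As the genes share arrays, these counts are not independent either, and no share over all probesets stands beside them. The difference in spread was not tested.

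**Figure D5:**
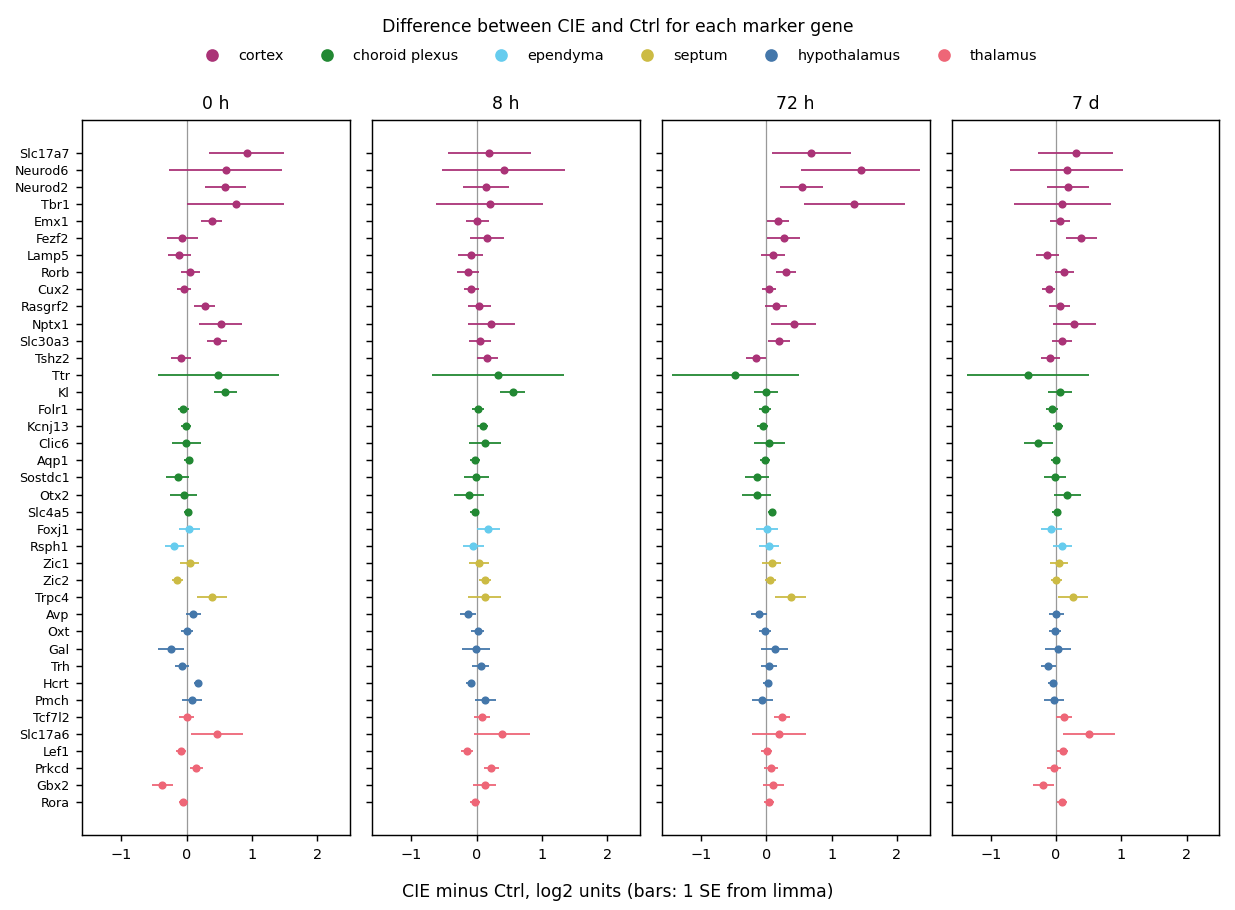
CIE minus Ctrl for each marker gene at 4 times (log2 units, bars of 1 SE from limma), coloured by region. No gene passed, the widest bars belong to Ttr, Neurod6 and Tbr1, and Kl is at 0.59 at 0 h and 0.55 at 8 h.

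The count of probesets that passed between CIE and Ctrl was also set beside a fit with each regional mean as a covariate. At 0 h 717 probesets passed without a covariate. With the mean as covariate there were 651 (cortex), 892 (choroid plexus), 824 (ependyma), 721 (septum), 984 (hypothalamus) and 1151 (thalamus), and the 717 kept their sign in each fit. The 717 had been picked for passing, and the regional means differed between CIE and Ctrl at 0 h by only -0.07 to 0.33. A change of sign was thus unlikely beforehand, and the kept signs tell little about neighbouring tissue. Of the 717, 583 also passed with the cortical mean, 662 with the septal, 706 with the choroid plexus, 710 with the ependymal, and 717 with the hypothalamic and thalamic means. At 8 h 28 passed without a covariate and 31 to 64 with 1, and at 72 h and 7 d 0 passed in any fit.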

How the data were processed

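RNA from the NAC of 45 mice was hybridized to Affymetrix mouse genome arrays. Per the labels each array held 1 mouse. Its title gave its group and its replicate number. The deposited log2 values were made by the authors with RMA. They background corrected and quantile normalized each hybridization batch, quantile normalized all arrays together and applied ComBat for the batches. Such steps can narrow differences between arrays. The labels name no batch, so 6 hybridization sets were inferred from values equal within 2e-08 (minimum of 5 per pair), each with at most 1 array per group. Ctrl 0 h replicate 20 belonged to none. Symbols came from the platform annotation: 34945 of 45037 probesets had 1 symbol, 932 several and 9160 none.

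Models with 8 group means were fitted with limma 3.58.1 (R 4.3.3) to all probesets and arrays, with Benjamini-Hochberg adjustment over all probesets of a contrast and a threshold of 0.01. List means and correlations were computed in Python 3.11.15 with numpy 2.4.6, pandas 2.3.3 and scipy 1.17.1. The limma fit was tested on simulated arrays, and the motif search on short planted sequences. The genes and lists were chosen with earlier results of these data known, so a list mean gets no p value. For values by group the 2 genes of largest SD within groups were taken in each regional list, and the 5 most similar other genes by correlation. Alternatives were another quantile normalization, median centring, the sets as a block, leaving out each array, all probesets of a gene, a filter on low levels, trend and robust settings, array weights, fits by time, a threshold of 0.05, and medians or scaled genes for list means. Leaving out the 4 arrays highest in a regional mean, and leaving Lamp5, Cux2 and Tshz2 out of the cortical mean, were added after the data were seen.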

Additional observations from a re-analysis of the deposited data

Results flagged for a closer look

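In each group of 5 or 6 arrays, the highest and lowest values were compared with the range of the group by Dixon's criterion, for 39 genes and 6 list means. Of 360 groups of values, 31 held an array that stood apart (8.61%), where chance alone flags about 5%. Genes of a list share arrays, so these are not independent.

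In the cortical genes the arrays that stood apart were mostly low. The cortical mean was lowest at -0.56 in CIE 72 h replicate 63 and at -0.71 in Ctrl 7 d replicate 77. In CIE 72 h replicate 63 Neurod6 was at 5.90 and Tbr1 at 6.46. In Ctrl 7 d replicate 77 Tbr1 was at 5.40, Fezf2 at 6.50 and Nptx1 at 9.36, and in Ctrl 0 h replicate 30 Tbr1 was at 5.29. Cux2 was highest at 9.38 in CIE 0 h replicate 72, and Tshz2 at 8.86 in CIE 7 d replicate 13.

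Of the choroid plexus genes, Ttr was lowest at 6.13 in Ctrl 72 h replicate 34, Kcnj13 highest at 6.05 in Ctrl 72 h replicate 6, and Sostdc1 highest at 6.42 in CIE 7 d replicate 13. The ependymal mean was highest at 0.98 in Ctrl 0 h replicate 20, where Rsph1 was at 8.16, and at 0.33 in CIE 0 h replicate 67.

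CIE 7 d replicate 13 was highest in the hypothalamic mean (0.44), Avp (6.10), Gal (7.33) and Gbx2 (5.32). Gal was also highest at 6.70 in CIE 72 h replicate 63 and at 6.48 in Ctrl 7 d replicate 62. Avp was highest at 5.80 in Ctrl 8 h replicate 42, and Hcrt at 6.21 in Ctrl 0 h replicate 38. Pmch was highest at 6.93 in CIE 8 h replicate 15, at 7.06 in Ctrl 72 h replicate 6 and at 6.32 in Ctrl 7 d replicate 62.

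The thalamic mean was highest at 0.39 in Ctrl 7 d replicate 62, where Lef1 was at 7.77. Lef1 was at 7.47 in Ctrl 72 h replicate 34, and Gbx2 at 5.00 in CIE 0 h replicate 43.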

How the results depend on the processing

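The count of markers that passed stayed at 0 under all but 3 of 148 alternatives tried over the times and contrasts. At 0 h it was 1, Kl, with a threshold of 0.05, and 1, again Kl, without the 4 arrays highest in a regional mean (adjusted p = 0.0018), among them CIE 0 h replicate 72. With each array of 0 h left out in turn it ran from 0 to 1, the 1 being Kl without CIE 0 h replicate 72. The smallest adjusted p among the markers at 0 h ran from 0.0027 to 0.14 with 1 array left out. Of 785 alternative values of the 30 list mean differences, 784 moved by less than 1 SD within groups and 79 had the other sign. The choroid plexus mean at 7 d moved from -0.06 to -0.35 when only genes above the median level were kept, which leaves Ttr and Clic6. The cortical mean difference stayed positive under all alternatives at 0 h (0.19 to 0.50), at 72 h (0.28 to 0.58) and over the 4 times (0.20 to 0.33). At 8 h 3 alternatives and at 7 d 1 turned it. Dim genes, 16 of the 39, limit what can be seen for choroid plexus and hypothalamus. The groups share no replicate number, so arrays were not paired by number. The inferred sets were used as a block, which left the count of markers that passed at 0.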
